A study of Saccharomyces cerevisiae with 4 samples.

Results

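The iron uptake genes of the Aft1 regulon were followed in budding yeast, between the long-lived SSG1-1 mutant and its wild type. They are 10 genes, FIT1, FIT2, FIT3, ARN1, ARN2, SIT1, ENB1, FET3, FTR1 and HMX1, found by name in the platform annotation. They are 10 of the 5330 genes tested. The list was drawn up with earlier results of these data known, so no test of the list was made. Each gene is named for 1 probe set, and all 10 were called present on the array of each strain whose detection calls could be used.

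RNA from 2 SSG1-1 arrays and 2 wild-type arrays was measured on one-colour Affymetrix arrays. The SSG1-1 group is labelled SSG1-1 mutant, and the wild type is W303-1A, the W303 laboratory strain. Both strains had been grown at 25 °C in rich YPD medium. For all 4 samples, cells from SDC pre-cultures (pH 6.0) were given 12 h in the same medium and were collected in early-log phase, at a density of 2000000 cells per ml. The series set out to read the mutant's expression in relation to its long lifespan. The labels do not say which gene the mutation lies in, whether the mutant is 1 isolate or several, how much iron the medium held, or whether replicate arrays stand for separate cultures. The spread between arrays, on which all p-values rest, may thus be technical.

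Baker's yeast takes up scarce iron by a pair of routes that the transcription factor Aft1 turns on when iron-sulfur clusters run low. In the reductive route, surface reductases free ferrous iron, which the copper enzyme Fet3 oxidises again so that the permease Ftr1 can carry it in. In the other route, iron bound to siderophores, small chelators made by other microbes, is held at the cell wall by the Fit mannoproteins and taken up by transporters of the Arn family. Hmx1, a heme oxygenase, breaks down heme and so frees iron inside the cell.

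Signals are on a linear scale after quantile normalization. Differences are log2 of SSG1-1 over wild type with limma's moderated standard error (SE), 2 arrays per strain. The 5376 tested probe sets had a median log2 difference of -0.02 with normalized values and of -0.15 with deposited ones, and every difference below is to be read against that shift. Median deposited signals of named probe sets lay between 874 and 1171 on the 4 arrays. Arrays with the same number resembled each other more than arrays of the same strain did. Across probe sets Pearson's r was 0.989 for the arrays numbered 1 and 0.991 for those numbered 2, against 0.983 between the SSG1-1 arrays and 0.985 between the wild-type arrays, where probe sets are not independent replicates. What the numbers stand for is not given in the labels.

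FIT2, FIT3, HMX1 and ARN2 had higher signal on both SSG1-1 arrays than on both wild-type arrays, with fold differences between 1.34 and 2.03. The other 6 genes, among them FET3 and FTR1 of the reductive route, had strains that overlapped. No member passed the limma test across all probe sets at an adjusted p under 0.05 (0 of 10), and 1 of 5376 probe sets did (0.0186%). At an unadjusted p under 0.05, 4 of 10 members were higher and 0 lower, where 2.72% of all tested probe sets were higher and 1.80% lower. The same 4 members lay higher on both SSG1-1 arrays, against 14.0% of all tested probe sets, and 0 members lay lower on both, against 18.0%. The median log2 difference over the 10 members was 0.23. In the values as deposited it was 0.07, and FIT2, FIT3 and HMX1 did not overlap between strains, where 3.40% of all tested probe sets lay higher on both SSG1-1 arrays. With 2 arrays against 2, an exact permutation test of a single gene cannot give a two-sided p below 0.333.

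**Figure D1:**
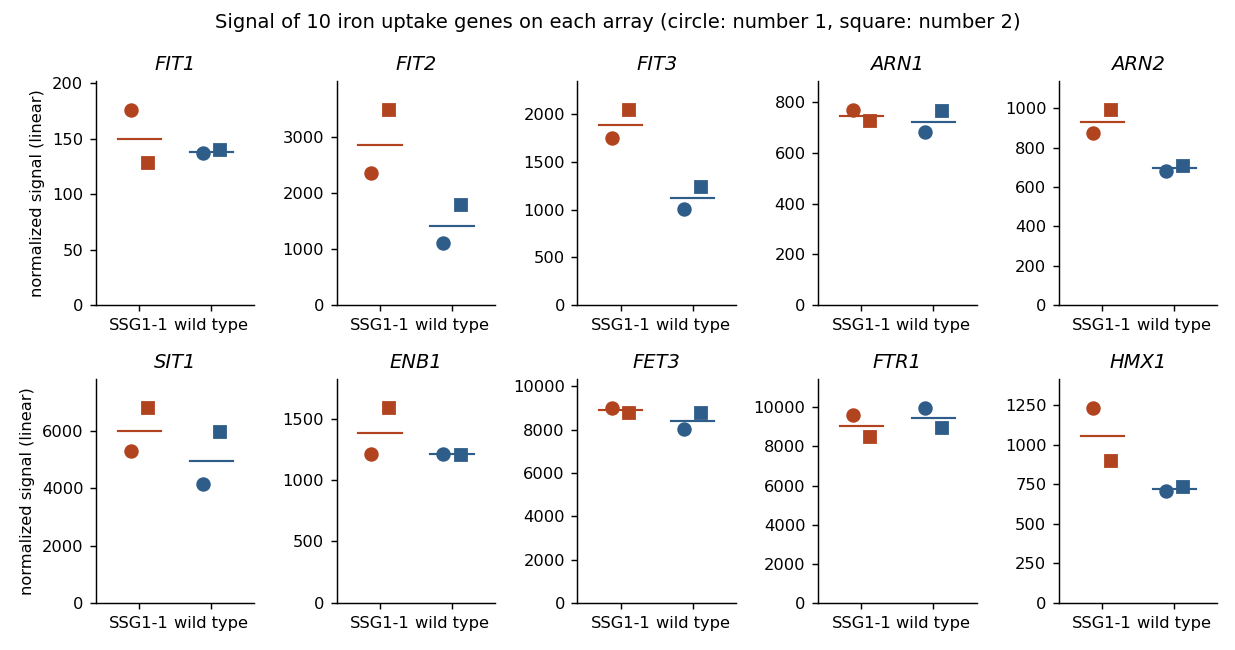
Normalized signal (linear axis from 0, own scale for each gene) of the 10 iron uptake genes on the SSG1-1 arrays (left, red) and the wild-type arrays (right, blue). Circles are arrays numbered 1, squares arrays numbered 2 and bars the geometric mean of each strain; FIT2, FIT3, ARN2 and HMX1 are the panels in which both red points lie above both blue points.

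The 3 FIT genes encode mannoproteins anchored in the cell wall that help to retain siderophore-bound iron. FIT2 (YOR382W) had signals of 2345 and 3470.4 on the SSG1-1 arrays, against 1105 and 1782 on the wild-type arrays. Its lowest SSG1-1 signal was 1.32 times the highest wild-type signal, and in both strains array 2 was the brighter one. The log2 difference was 1.02 ± 0.305 (SE, 95% interval 0.24 to 1.81), a 2.03-fold difference that ranked 25 from the highest of 5376 (limma adjusted p = 0.944). Without wild-type replicate 1 the log2 difference of FIT2 was 0.68.

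FIT3 (YOR383C) had signals of 1746 and 2037 on the SSG1-1 arrays, against 1009 and 1240.3 on the wild-type arrays. The strains were 1.41-fold apart at their nearest arrays, the widest such gap among the members. The log2 difference was 0.75 ± 0.17 (SE, 95% interval 0.32 to 1.19), or 1.69-fold (limma adjusted p = 0.861). In the reference gene table FIT2 and FIT3 are direct neighbours, with the reductase gene FRE5 next to FIT3 on its other side. FRE5 was called absent on both arrays with usable calls and was not tested.

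FIT1 (YDR534C) did not share this pattern. It had signals of 176 and 128 on the SSG1-1 arrays, against 137 and 140.0 on the wild-type arrays, and the wild-type values lay between the SSG1-1 values. Its log2 difference was 0.11 ± 0.23 (SE, 95% interval -0.48 to 0.71). That interval overlaps those of FIT2 and FIT3, and the difference between the FIT genes was not tested. With the arrays centred on their medians in place of quantile normalization, FIT1 too did not overlap between strains.

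The Arn family transporters carry iron bound to siderophores, each with its own preference. ARN2 (YHL047C), the transporter for triacetylfusarinine C, had signals of 876 and 990.2 on the SSG1-1 arrays, against 682 and 707 on the wild-type arrays. The strains were 1.24-fold apart at their nearest arrays, and the wild-type pair differed by a log2 of 0.05. The log2 difference between strains was 0.42 ± 0.14 (SE, 95% interval 0.06 to 0.79), or 1.34-fold (limma adjusted p = 0.998). In the deposited values the ARN2 strains overlapped, and the log2 difference was 0.27.

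SIT1 (YEL065W), the ferrioxamine B transporter, had signals of 5288 and 6797 in SSG1-1, against 4133 and 5962 in the wild type. The strains overlapped, and array 2 was brighter in each. Its log2 difference was 0.27 ± 0.22 (SE, 95% interval -0.29 to 0.84), and it was 0.0081 without wild-type replicate 1 and 0.54 without wild-type replicate 2. ENB1 (YOL158C), the enterobactin transporter, had signals of 1209.7 and 1586 in SSG1-1, against 1214 and 1203 in the wild type. After normalization only SSG1-1 array 2 stood above the other 3, which lay close together. The deposited signals were 1026 and 1655 in SSG1-1, against 1381 and 1180.5 in the wild type, with a log2 difference of 0.03. With normalized values the log2 difference of ENB1 was 0.20 ± 0.18 (SE, 95% interval -0.25 to 0.65). It was 0.0013 without SSG1-1 replicate 2 and 0.39 without SSG1-1 replicate 1. ARN1 (YHL040C), a transporter of ferrichrome-type siderophores, had signals of 767 and 726 in SSG1-1, against 682 and 766 in the wild type. These strains overlapped, and the log2 difference of ARN1 was 0.05 ± 0.14 (SE, 95% interval -0.32 to 0.41), positive after normalization and -0.10 in the deposited values.

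FET3 and FTR1 encode the ferroxidase and the permease that together form the high-affinity reductive uptake complex. FET3 (YMR058W) had signals of 9002 and 8779 on the SSG1-1 arrays, against 8033 and 8779 on the wild-type arrays. Arrays numbered 2 were equal because the gene held the same rank on both, and their deposited signals were 8743 in SSG1-1 and 8582 in the wild type. The log2 difference of FET3 was 0.08 ± 0.08 (SE, 95% interval -0.12 to 0.29), and -0.05 in the deposited values. FTR1 (YER145C) had signals of 9599 and 8475 on the SSG1-1 arrays, against 9962 and 8944 on the wild-type arrays. The strains overlapped, and the arrays numbered 1 were brighter in each. FTR1 was the only member with a negative log2 difference after normalization, -0.07 ± 0.10 (SE, 95% interval -0.32 to 0.19). The intervals of FET3 and FTR1 leave out differences as large as those measured for FIT2 and FIT3. The FET3 interval still overlaps that of FIT2, and differences between the genes were not tested. These intervals depend on the scaling. With median centring the SE was 0.157 for FET3 and 0.180 for FTR1.

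HMX1 (YLR205C), the heme oxygenase, had signals of 1231 and 899 on the SSG1-1 arrays, against 705 and 734 on the wild-type arrays. The wild-type arrays were close together, while the SSG1-1 arrays differed from each other by a log2 of 0.45. The log2 difference between strains was 0.55 ± 0.19 (SE, 95% interval 0.05 to 1.05), or 1.46-fold (limma adjusted p = 0.998). Without SSG1-1 replicate 1 it was 0.32.

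**Figure D2:**
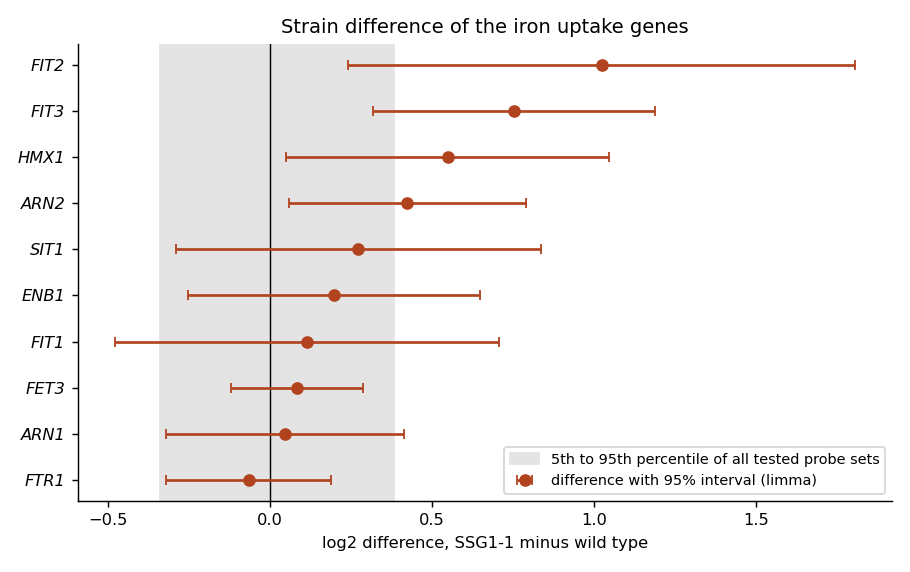
Log2 difference, SSG1-1 minus wild type, of each iron uptake gene (points) with limma's 95% interval (bars), 2 arrays per strain, ordered by size. The grey band is the 5th to 95th percentile of all tested probe sets, -0.34 to 0.38. FIT2, FIT3, HMX1 and ARN2 lie beyond its upper end, and the intervals of those 4 genes leave out 0. The intervals are for single genes, without adjustment over all probe sets. By limma's adjusted p, 0 of the 10 genes were under 0.05.

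Between arrays numbered 1 and 2 the members varied in both directions, with a median log2 difference of -0.08. The log2 difference of number 1 minus number 2, averaged over the strains, was -0.63 for FIT2 and -0.45 for SIT1, and it was 0.21 for FIT1 and 0.20 for HMX1 at the other end. FIT2 alone lay outside the 5th to 95th percentile of all tested probe sets, -0.52 to 0.54. For SIT1, FIT1 and FTR1 this difference was larger in size than the one between strains, and for the other members it was smaller. For FIT2, FIT3, ARN2 and HMX1 a smaller one is bound to follow when the strains do not overlap, so it weighs nothing. Within arrays numbered 1 the log2 difference between strains was 1.09 for FIT2, 0.79 for FIT3, 0.36 for ARN2 and 0.80 for HMX1. Within arrays numbered 2 it was 0.96, 0.72, 0.49 and 0.29 in the same order of genes. For SIT1 it was 0.36 within number 1 and 0.19 within number 2. Each of these values rests on 1 array per strain, and for the 4 genes without overlap between strains a positive sign within each number follows from that.

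**Figure D3:**
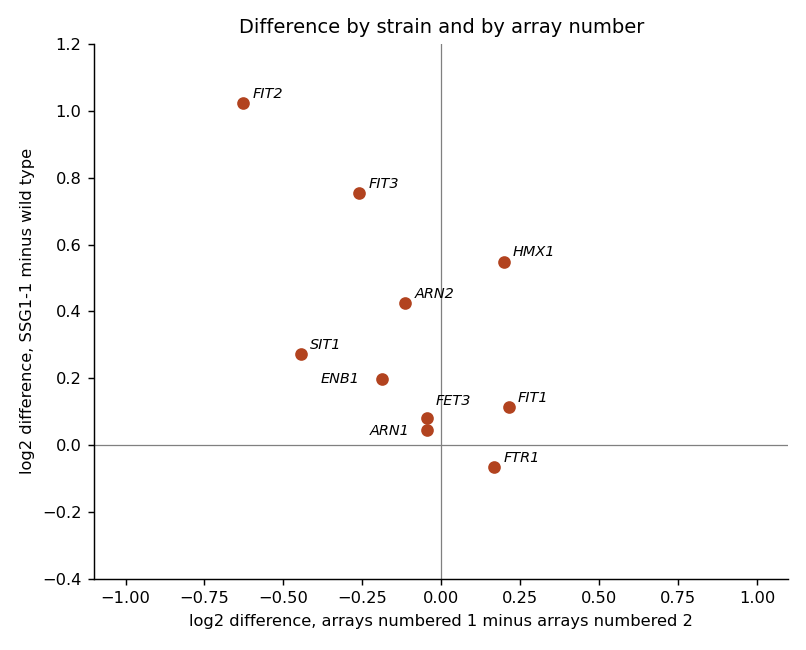
Log2 difference by strain (vertical axis, SSG1-1 minus wild type) against log2 difference by array number (horizontal axis, number 1 minus number 2) for the 10 iron uptake genes, 4 arrays in all. FIT2 stands apart on both axes, at 1.02 by strain and -0.63 by number, and FTR1 is the 1 gene below 0 by strain.

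The genes whose pattern over the 4 arrays was nearest to that of FIT2, among tested genes with a standard symbol outside the members, were WHI5, SUC2 and COS111. Nearness was the Euclidean distance between log2 signals centred on each gene over 4 arrays, and it was 0.32 for both WHI5 and SUC2 and 0.38 for COS111. FIT3 was the nearest member, at 0.46, and FTR1 the farthest, at 1.35. WHI5 encodes a repressor of the start of the cell cycle and SUC2 encodes invertase. WHI5 had signals of 52.0 and 94.1 in SSG1-1, against 28.3 and 53.5 in the wild type, and its strains overlapped. The strains did not overlap for SUC2 and COS111. The distances describe these 4 arrays only.

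Of the regulators of iron use, AFT1 and AFT2 overlapped between strains and TIS11 did not. AFT1, the main activator, had signals of 865 and 539.5 in SSG1-1, against 785 and 647 in the wild type, and a log2 difference of -0.06 ± 0.27 (SE). AFT2, its paralog, had signals of 271 and 278 in SSG1-1, against 223 and 331 in the wild type, and a log2 difference of 0.01 ± 0.24 (SE), negative in the deposited values. Signals of AFT1 and AFT2 mRNA do not measure the activity of the proteins, which is set largely by their place in the cell. TIS11, also known as CTH2, is an Aft1 target whose product binds and destabilises mRNAs of iron-using proteins. It had signals of 1539 and 1115 in SSG1-1, against 861 and 902 in the wild type, and the strains did not overlap. The log2 difference of TIS11 was 0.57 ± 0.20 (SE, limma adjusted p = 0.998), and without SSG1-1 replicate 1 it was 0.34. Of the 9 regulators TIS11 was the 1 gene with no overlap between strains after normalization. Over all tested probe sets, 14.0% lay higher on both SSG1-1 arrays and 18.0% lower. The median over the 9 regulators was 0.0074 (-0.12 in the deposited values).

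Across 72 tested genes of 8 further iron lists, 0 passed the adjusted limma threshold, and TIS11 was the 1 gene at an unadjusted p under 0.05. Both SSG1-1 arrays were higher for 11 of the 72 and lower for 7, where the shares over all tested probe sets were 14.0% and 18.0%. The median log2 difference of the 72 was 0.03. In the following lists the genes named for not overlapping between strains were picked out after their values were seen.

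Of 7 tested reductase genes, FRE4 alone did not overlap, with a log2 difference of -0.36 ± 0.18 (SE). It lay lower on both SSG1-1 arrays, as did 18.0% of all tested probe sets. FRE1, the main surface reductase, was at 0.18 ± 0.21 and FRE2 at -0.09 ± 0.17 (SE). The median of the reductases was 0.05 (-0.06 in the deposited values). Fet3 is loaded with copper inside the cell. All 7 genes of copper supply had positive log2 differences after normalization, where 2466 of 5376 tested probe sets did. The median of the 7 was 0.15. In the deposited values 5 of the 7 were negative, with a median of -0.02. ATX1, the copper chaperone, was at 0.38 ± 0.15 (SE), with signals of 3357 and 2807 in SSG1-1, against 2188 and 2538 in the wild type. CTR3, a copper transporter, and GEF1, a chloride transporter needed for copper loading of Fet3, also did not overlap after normalization, at 0.36 ± 0.18 and 0.04 ± 0.12 (SE). Of all tested probe sets, 14.0% lay higher on both SSG1-1 arrays. In the deposited values ATX1 was the 1 gene of the 7 without overlap, where 3.40% of all tested probe sets lay higher on both. GEF1 was negative there. CCC2, the copper pump that supplies Fet3, was at 0.15 ± 0.18 and the copper transporter gene CTR1 at 0.03 ± 0.20 (SE), and both were negative in the deposited values.

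Of 7 transporters of the vacuole and mitochondria, FTH1, the vacuolar partner of Fet5 and a paralog of FTR1, was at 0.29 ± 0.12 and MRS4, a mitochondrial iron carrier, at 0.12 ± 0.13 (SE), both with no overlap after normalization. Over all tested probe sets, 14.0% lay higher on both SSG1-1 arrays after normalization and 3.40% in the deposited values. In the deposited values the strains overlapped for all 7, and with median centring MRS4 overlapped. CCC1, which stores iron in the vacuole, was at 0.07 ± 0.27 (SE), negative in the deposited values, and the median of the 7 was 0.12 (-0.05 in the deposited values). Of 7 other tested targets of Aft1 or Aft2, all had positive differences after normalization, where 2466 of 5376 tested probe sets did. The 7 ran from 0.02 to 0.84 with a median of 0.18, while 4 were negative in the deposited values and 1 with median centring. BNA2, an enzyme of NAD synthesis, was the 1 without overlap after normalization (0.55 ± 0.23, SE). In the deposited values the strains overlapped for BNA2 as well. The 4 other metal ion transporters of the cell surface had a median of -0.08, with ZRT1, the zinc transporter, lower on both SSG1-1 arrays (-0.22 ± 0.12, SE). ZRT1 was 1 of the 4, where 18.0% of all tested probe sets lay lower on both.

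The 23 genes of iron-sulfur cluster assembly had a median log2 difference of 0.0009, with 4 higher on both SSG1-1 arrays (NFS1, ISA2, IBA57 and ARH1) and 3 lower (MGE1, ERV1 and NAR1), close to the shares of 14.0% and 18.0% over all tested probe sets. In the deposited values 0 of the 23 were higher and 2 lower on both. The shares over all tested probe sets were 3.40% and 22.3% there. The median of the 23 was -0.15 in those values, close to that of all tested probe sets. With median centring NFS1 overlapped between strains. After normalization they ran from -0.31 for NAR1 to 0.44 for IBA57. The 8 genes of heme synthesis had a median of -0.02 (-0.19 in the deposited values) and ran from -0.17 to 0.06. HEM1, the first enzyme of the pathway, and HEM12 were lower on both SSG1-1 arrays, at -0.17 ± 0.09 and -0.14 ± 0.13 (SE). These are 2 of the 8 genes, where 18.0% of all tested probe sets lay lower on both. At their nearest arrays the strains were 1.01-fold apart for HEM12.

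**Figure D4:**
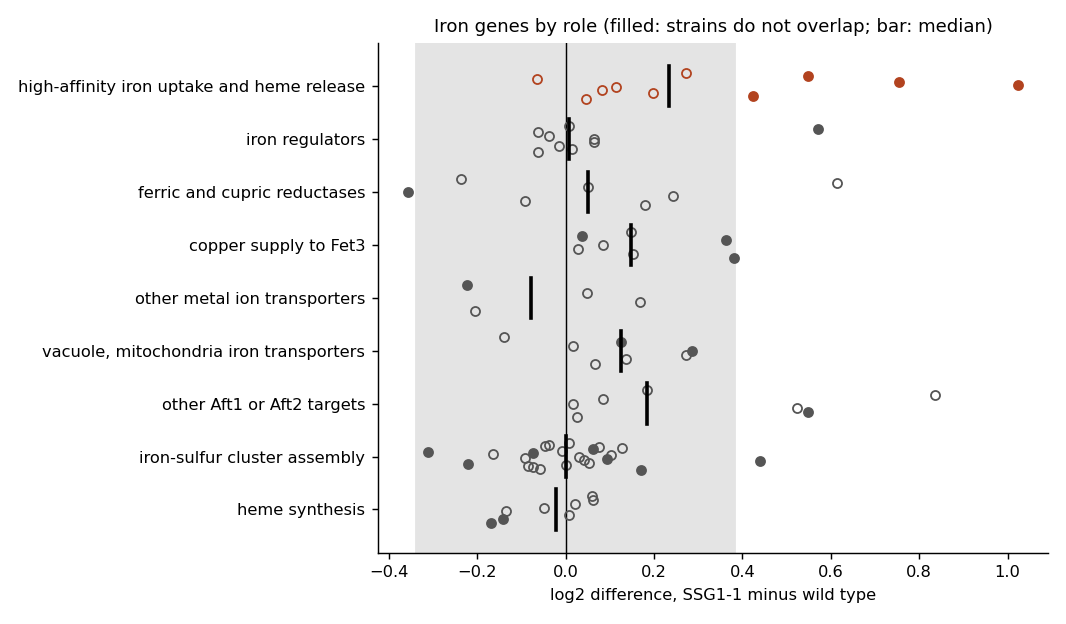
Log2 difference, SSG1-1 minus wild type, of each tested gene in 9 lists of iron genes by role, with the 10 iron uptake genes in red. Filled points are genes whose strains do not overlap, black bars are list medians and the grey band is the 5th to 95th percentile of all tested probe sets; FIT2 at 1.02 is the farthest point to the right, and the medians of iron-sulfur cluster and heme genes are 0.0009 and -0.02.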

How the data were processed

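The deposited values are MAS5 signal intensity on a linear scale, 1 per probe set and array, made by the authors with GCOS per the submitters' processing notes. The sources used here do not give the background correction or the scaling target. A second deposited table holds MAS5 calls. Its value columns that name a strain equal replicate 2 of that strain in all 10928 values, so calls came from 1 array per strain. The 4 other columns name no strain and were not used.

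Probe sets were named through the platform annotation and gene identifier against the R64 gene table of S. cerevisiae S288C. Of 10928, 5498 were named for 1 yeast gene and 5376 were also called present in at least 1 usable call column. Trimmed mean signals differed between arrays (1034 to 1298), so log2 signals, floored at 0.1, were quantile normalized. SSG1-1 was compared with wild type in limma 3.58.1 (R 4.3.3; mean-variance trend, two-sided, Benjamini-Hochberg over 5376 probe sets, threshold 0.05), after a test on simulated data. Only 2 arrays per strain limit the precision (median SE of a log2 difference 0.163). Figures used matplotlib 3.10.9.

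Members, lists and the naming rule were chosen with earlier results of these data known. The rule names all members, 9 fixed genes, and up to 4 genes per list without overlap at an unadjusted p under 0.05, which TIS11 alone met. The other list genes named for not overlapping between strains fall outside the rule and were chosen after their values were seen. Of the listed genes, FRE5 and LSO1 were not called present. A planned promoter motif count was not run, and no sequences or coordinates are given. Alternatives covered scaling, filter, floor, trend, a replicate block and leaving out each array.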

Additional observations from a re-analysis of the deposited data

How the results depend on the processing

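Filter, floor, trend and block leave a log2 difference as it is, and for genes without overlap between strains leaving out 1 array cannot turn its sign, so for FIT2, FIT3, ARN2 and HMX1 the scalings alone could do so. With both other scalings they stayed positive, and so did SIT1 and ENB1. Over all alternatives they ran from 0.68 to 1.37 (FIT2), 0.58 to 0.90 (FIT3), 0.27 to 0.51 (ARN2), 0.32 to 0.78 (HMX1), 0.0081 to 0.54 (SIT1) and 0.0013 to 0.39 (ENB1). The count of members past the adjusted threshold was 0 under every alternative except the replicate block. The arrays of one number deviated together from their strain means (correlation 0.634 across probe sets), but there are only 2 pairs and no label says what a number marks. With the replicate block 5 members passed (FIT2, FIT3, ARN2, SIT1 and HMX1), and 828 probe sets did. In that fit limma took each variance from the mean-variance trend alone. With the block but no trend, an alternative chosen after seeing the data, 0 members and 4 probe sets passed, with limma adjusted p of 0.0862 for FIT2 and 0.106 for FIT3. Probe sets past the threshold were 6 in the deposited values, 4 with median centring and 0 without the trend. In the fit of the deposited values, too, limma took each variance from the trend alone. In the deposited values the members' median was 0.0665, and log2 differences were -0.10 for ARN1, -0.0498 for FET3, -0.12 for AFT2, -0.13 for CTR1, -0.0173 for CCC2, -0.0862 for CCC1, -0.13 for GEF1, -0.0464 for MRS4, -0.0928 for NFS1 and -0.0623 for ISA2, opposite to those after normalization. There both SSG1-1 arrays lay higher for 183 and lower for 1198 of all probe sets. Leaving out 1 array, the members' median ran from 0.15 (without wild-type replicate 1) to 0.36 (without SSG1-1 replicate 1), and 5 to 7 members lay higher and 0 to 2 lower without overlap, where 29.0% to 31.4% of all probe sets lay higher and 32.8% to 39.2% lower. Signs also turned on leaving out 1 array for FIT1 (-0.12 to 0.34), FTR1 (-0.156 to 0.0242), ARN1 (-0.0376 to 0.129), AFT1 (-0.40 to 0.28), AFT2 (-0.27 to 0.30), FRE1 (-0.0909 to 0.450), CTR1 (-0.17 to 0.23), CCC2 (-0.0494 to 0.352) and CCC1 (-0.22 to 0.35). No gene named here had a second probe set, so that alternative gave no value. The causes were not tested.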
